A study of Mus musculus with 4 samples.

Results

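The SOX transcription factors examined here are 8 genes, Sox2, Sox4, Sox5, Sox6, Sox7, Sox9, Sox10 and Sox11, chosen by name from the 18194 genes that the array annotation names. All probe sets annotated to them were taken, which gave 34 of the 45101 probe sets on the array, and each gene was represented by its brightest probe set on average, called its main probe set. Expression was measured in Comma D beta, a mouse mammary epithelial cell line that holds cells with and without the surface marker Sca1. The cells grew overnight in DMEM F12 with 2% serum, 5 ug/ml insulin and 10 ng/ml EGF, and doxycycline (dox) was then given to some of them at 100 ng/ml for 1 day. Sca1+ and Sca1- cells, 200k of each, were sorted from treated and untreated cells, which gave 4 groups, the Sca1+ and Sca1- fractions without dox and the same fractions with dox. Each group is 1 array, so no single difference between 2 arrays has a replicate check, and the one test is an additive fit over the 4 arrays. The series title names Bcl11b, and the labels do not say what dox controls in this line.

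SOX proteins bind the minor groove of DNA through a high mobility group (HMG) box related to that of the sex-determining factor SRY, bend the DNA, and act with partner factors. They fall into groups by the similarity of that box: Sox2 belongs to SOXB, Sox4 and Sox11 to SOXC, Sox5 and Sox6 to SOXD, Sox9 and Sox10 to SOXE, and Sox7 to SOXF. In the mammary gland Sox9 and Sox10 are known for roles in stem and progenitor cells. Sox4 is known as a target of TGF-beta signalling, and Sox2 as a factor of pluripotent and other stem cells.

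The 250 bases upstream of the annotated start of 3 members are shown because the results turn on Sox4 and Sox2, and because Sox11, the SOXC relative of Sox4, differed little between the arrays. They come from RefSeq on build GRCm38.p6, whose table lists a start for 5 of the 8 members (Sox2, Sox4, Sox5, Sox6 and Sox11). The Sox2 stretch is chr3:34649745-34649994 on the plus strand, the Sox4 stretch chr13:28953700-28953949 on the minus strand, and the Sox11 stretch chr12:27342719-27342968 on the minus strand. Each is written 5′ to 3′ along its gene, and capitals mark the letters CCAAT (the CCAAT box) and ACAAAG (letters of the SOX consensus), or their reverse complements ATTGG and CTTTGT.
Sox2: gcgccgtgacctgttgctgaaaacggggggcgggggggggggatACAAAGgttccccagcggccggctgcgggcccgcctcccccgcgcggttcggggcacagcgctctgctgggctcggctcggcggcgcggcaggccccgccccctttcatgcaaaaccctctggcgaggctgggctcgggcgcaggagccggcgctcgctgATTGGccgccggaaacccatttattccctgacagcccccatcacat
Sox4: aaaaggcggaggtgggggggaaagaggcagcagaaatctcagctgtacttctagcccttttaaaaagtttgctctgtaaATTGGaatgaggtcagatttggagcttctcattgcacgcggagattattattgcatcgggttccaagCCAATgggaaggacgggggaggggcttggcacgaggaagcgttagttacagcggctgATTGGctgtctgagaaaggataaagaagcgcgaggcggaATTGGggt
Sox11: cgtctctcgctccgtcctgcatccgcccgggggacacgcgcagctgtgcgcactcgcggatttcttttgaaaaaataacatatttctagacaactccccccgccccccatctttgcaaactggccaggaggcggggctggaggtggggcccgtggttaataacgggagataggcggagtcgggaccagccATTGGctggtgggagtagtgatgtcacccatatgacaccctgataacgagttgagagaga
CCAAT occurred in all 3 stretches, on either strand, as it did in 33.8% of the 32851 upstream stretches in the table. The Sox4 stretch held 4 copies, a number reached or passed by 0.84% of all stretches. ACAAAG occurred once upstream of Sox2, from 206 to 201 bases before the start, against 16.5% of all stretches with at least 1 copy. Neither TATAAA, the letters of a TATA box (12.4% of all stretches), nor TGACCA, the letters known for the Bcl11b paralogue Bcl11a (11.4%), occurred in any of the 3. These matches describe letters in a window and were not tied to the expression values.

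All levels are log2 expression levels, and every array has an exact minimum of 3.32, the log2 of 10, called the floor here. Where 1 side of a difference lies at the floor, the difference is a lower bound and is written as "at least". Between 44.8% and 48.0% of all probe sets lay at the floor on an array, and the array medians ran from 3.48 to 3.70. The actin control's 3' minus 5' difference, a sign of RNA integrity, was 0.69 and 0.81 on the untreated and 0.83 and 0.91 on the dox arrays. Its part in the dox differences was not tested. Bcl11b, by its most intense probe set, read 6.87 and 6.29 on the untreated Sca1+ and Sca1- arrays and 12.11 and 11.99 on the dox arrays, while its other 3 probe sets were lower or at the floor with dox.

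The epithelial origin of the cells was visible in both lineages. Of 6 luminal markers 5 lay above the floor on every array, including Krt18 and the adhesion genes Epcam and Cdh1, and 1, Krt19, was at the floor throughout. Of 6 basal markers Krt14, Krt5, Acta2 and Trp63 lay above the floor on every array and Cnn1 on none. The summed linear level of the luminal list was 5788 in untreated Sca1+, 9890 in untreated Sca1-, 4712 in dox Sca1+ and 6631 in dox Sca1- cells, and that of the basal list 7682, 5459, 4792 and 4514. Both sums differed between the groups, and their part in the SOX values was not tested. Of 5 fibroblast markers Col1a1 and Col3a1 were at the floor on all arrays, and the summed level was 58.9 and 75.4 without dox and 728 and 396 with dox (Sca1+ first), where Dcn reached 9.41 and 8.42 on the log2 scale from the floor. Of 5 leukocyte markers Ptprc, Cd3e, Itgam and Tyrobp were at the floor on all arrays, and the sum was 50.3 and 53.6 without dox and 111 and 112 with dox, where Cd68, a macrophage gene, stood at 6.16 on both arrays (log2). Whether these genes bear on the dox differences of SOX members was not tested. In sorted bulk cells, fewer cells of a type and less RNA per cell cannot be told apart.

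A gene was counted as different where its levels on the 2 arrays of a comparison differed 2-fold or more. Of the 8 members, Sox2 was 2-fold lower with dox in Sca1+ cells, none was 2-fold different with dox in Sca1- cells, Sox2 was 2-fold higher in the Sca1+ fraction than in the Sca1- fraction without dox, and none was 2-fold different between the fractions with dox. The same rule was met by 21.4% of the 12264 genes analysed for dox in Sca1+ cells and by 18.5% in Sca1- cells. It was met by 6.39% for Sca1 without dox and by 5.5% with dox. Counted by direction, 8.47% of genes were higher and 12.9% lower with dox in Sca1+ cells, and 7.2% higher and 11.3% lower in Sca1- cells. For Sca1+ against Sca1- cells, 3.07% were higher and 3.33% lower without dox, and 2.52% higher and 2.98% lower with dox. With 8 members, a count of 0 or 1 does not set them apart from all genes. No member was 2-fold different in the same direction in both fractions with dox, where 5.29% of genes were higher and 8.56% lower both times. None was so in Sca1+ against Sca1- cells with and without dox, where 1.08% were higher and 0.881% lower both times. An additive limma fit of dox and Sca1 over the 4 arrays takes the fractions for independent samples. At a Benjamini-Hochberg adjusted p under 0.05 it called 26.7% of genes for dox and 0.0% for Sca1, and 0 of the members for either. At an unadjusted p under 0.05 it held 2 members and 42.2% of genes for dox, and 3 members and 13.7% of genes for Sca1. Without replicates, the spread in this fit comes from how far the dox effects of the fractions differ, shared in part over all genes. A gene whose dox effects differ between the fractions, such as Sox2, is thus less readily called. A count of 0 members does not show that no member differs. The genes analysed reached 3.63, the median over all probe sets and arrays, on at least 1 array. Of the members, 6 passed that filter and also lay above the floor on all 4 arrays, and Sox7 and Sox10 did not pass. The median difference of the 6 was -0.25 and 0.01 for dox in Sca1+ and Sca1- cells, and 0.05 and 0.12 for Sca1 without and with dox. Over all genes analysed these medians were 0.03, 0.02, -0.01 and -0.03.

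**Figure D1:**
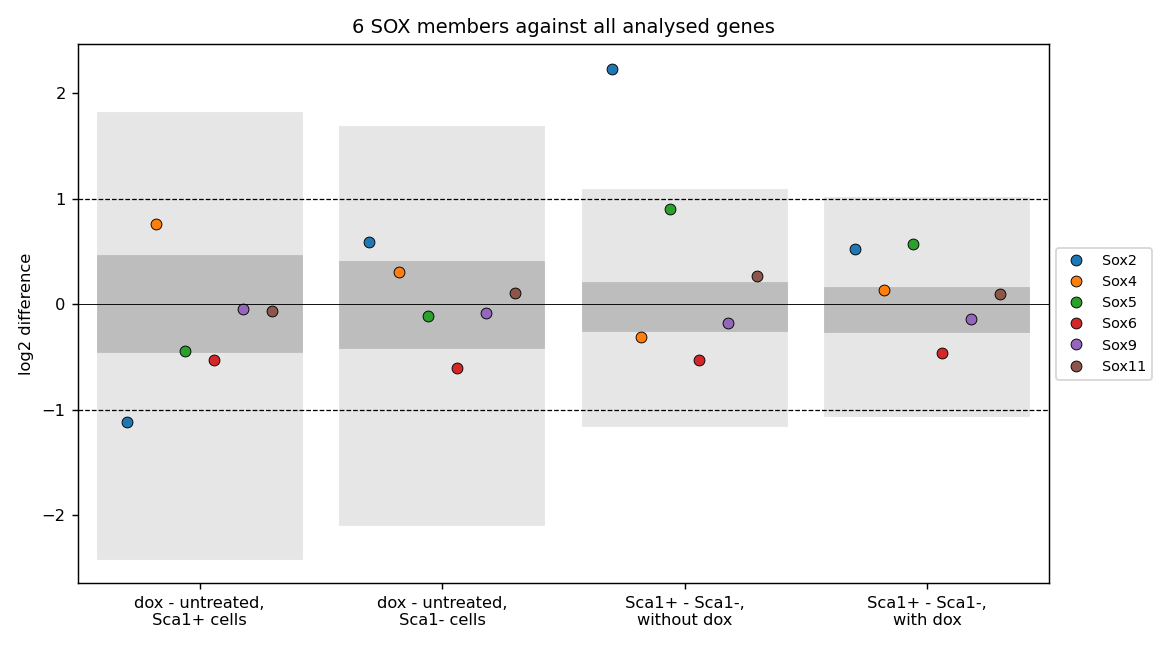
Log2 differences (vertical axis) of the 6 SOX members that passed the filter in the 4 comparisons, each point 1 gene by its main probe set; dark and light boxes span the middle 50% and 95% of the 12264 genes analysed, and dashed lines mark 2-fold. Sox2 at 2.23 without dox lies above the light box, and every other point lies within its light box.

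Sox2, the SOXB factor that works with Pou5f1 in pluripotent cells, had 1 probe set on the array. It read 6.09 in untreated Sca1+ cells, 3.86 in untreated Sca1- cells, 4.97 in dox Sca1+ cells and 4.44 in dox Sca1- cells. Untreated Sca1+ cells were the highest and untreated Sca1- cells the lowest, with the dox arrays between them and close to each other. Without dox, Sca1+ cells thus had 4.69 times the Sox2 level of Sca1- cells, and with dox 1.44 times. A difference of at least the size seen without dox was found in 0.47% of the genes analysed. With dox its level was 2.17-fold lower in the Sca1+ fraction, while in the Sca1- fraction it was higher by 0.59 (log2). The dox differences thus had opposite signs, and they differed by -1.70 (log2, Sca1+ minus Sca1-), a size reached by 1.12% of genes, where 7.13% reach 2-fold. Signs were opposite in 17.1% of all genes. Both Sca1- values lie under a linear level of 30. With the floor raised to that level, Sox2 differed by 0.00 with dox in Sca1- cells, so the opposite sign was gone, by 1.18 between the fractions without dox and by 0.06 with dox (log2). All 4 Sox2 values are low on this array, with none at a linear level of 100, and no second probe set bears on them. The probe set of Sox2ot, a noncoding transcript that overlaps Sox2, was at the floor on every array.

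The genes analysed whose 4 values followed Sox2 most closely were Vsnl1, Spink5 and Cd109. The distance between the centred log2 profiles over the 4 arrays was 0.40, 0.45 and 0.46, and 4 genes lay within 0.5. Spink5 read 7.13 (Sca1+) and 5.33 (Sca1-) without dox, and 6.60 (Sca1+) and 5.68 (Sca1-) with dox. It shares with Sox2 that its highest value was in untreated Sca1+ cells. With 4 arrays this likeness is a description only.

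**Figure D2:**
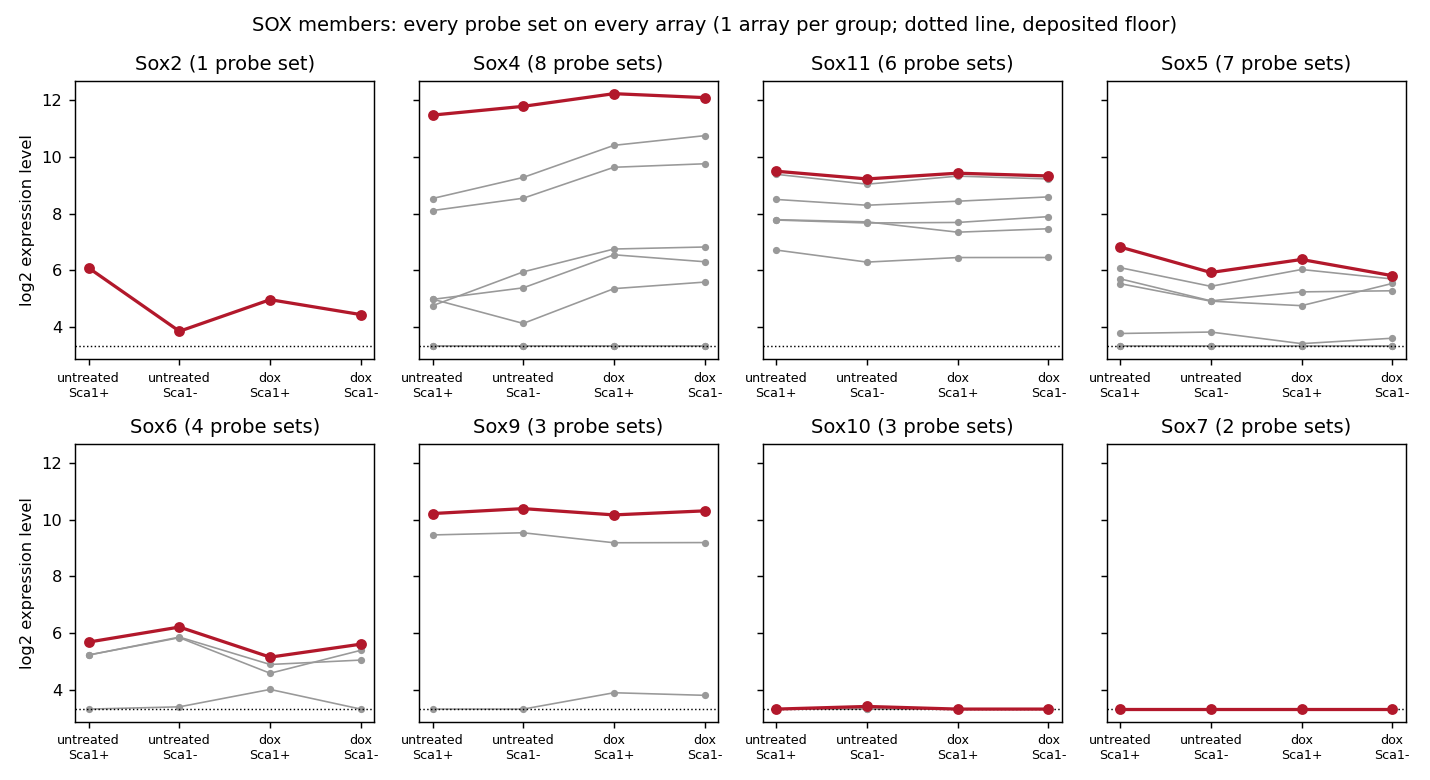
Log2 expression level (vertical axis) of all 34 probe sets of the 8 SOX members on the 4 arrays (horizontal axis), the main probe set of each gene in red, the others in grey, and the floor of 3.32 as a dotted line. Sox2 is highest in untreated Sca1+ cells, most Sox4 lines are higher on the dox arrays, the Sox9 and Sox11 lines are nearly level, and Sox7 and Sox10 lie at or next to the floor.

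Sox4, a SOXC factor of progenitor cells, had higher values with dox in both fractions on every probe set with signal. Its main probe set, 1433575_at, read 11.47 in untreated Sca1+ cells, 11.78 in untreated Sca1- cells, 12.23 in dox Sca1+ cells and 12.09 in dox Sca1- cells. Both dox arrays were above both untreated arrays, by 1.69-fold in Sca1+ and 1.24-fold in Sca1- cells, which is under the 2-fold rule. Differences at least as large were found in 30.8% of the genes analysed in Sca1+ and 60.2% in Sca1- cells. The main probe set thus places Sox4 well inside the range of all genes.

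Other Sox4 probe sets gave larger dox differences. Of the 8 probe sets, 2 were at the floor on all arrays and the remaining 6 were higher with dox in both fractions. In Sca1+ cells 4 of them were at least 2-fold higher, and in Sca1- cells 3 were. The second in level, 1419156_at, read 8.54 in untreated Sca1+ cells, 9.28 in untreated Sca1- cells, 10.41 in dox Sca1+ cells and 10.75 in dox Sca1- cells, which is 3.67-fold and 2.77-fold higher with dox. The third, 1419155_a_at, was higher with dox by 2.88-fold (Sca1+) and 2.32-fold (Sca1-). These 2 probe sets passed the 2-fold rule in both fractions. Over the 6 probe sets the dox difference ran from 0.37 to 2.00 in Sca1+ and from 0.31 to 1.47 in Sca1- cells (log2). With all 8 probe sets averaged, Sox4 was 1.01 higher in Sca1+ cells (log2), just past the rule. The probe sets agree in direction and disagree in size, and the main one, whose level is the highest, gave the smallest difference in Sca1- cells and the second smallest in Sca1+ cells.

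Between the fractions Sox4 was closer. The main probe set was 1.24-fold lower in Sca1+ than in Sca1- cells without dox and 1.10-fold higher with dox. Of the 6 probe sets with signal, 5 were lower in Sca1+ cells without dox and 4 with dox. The 1449370_at probe set, at 4.76 in untreated Sca1+ and 5.95 in untreated Sca1- cells, was the one 2-fold different without dox.

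**Figure D3:**
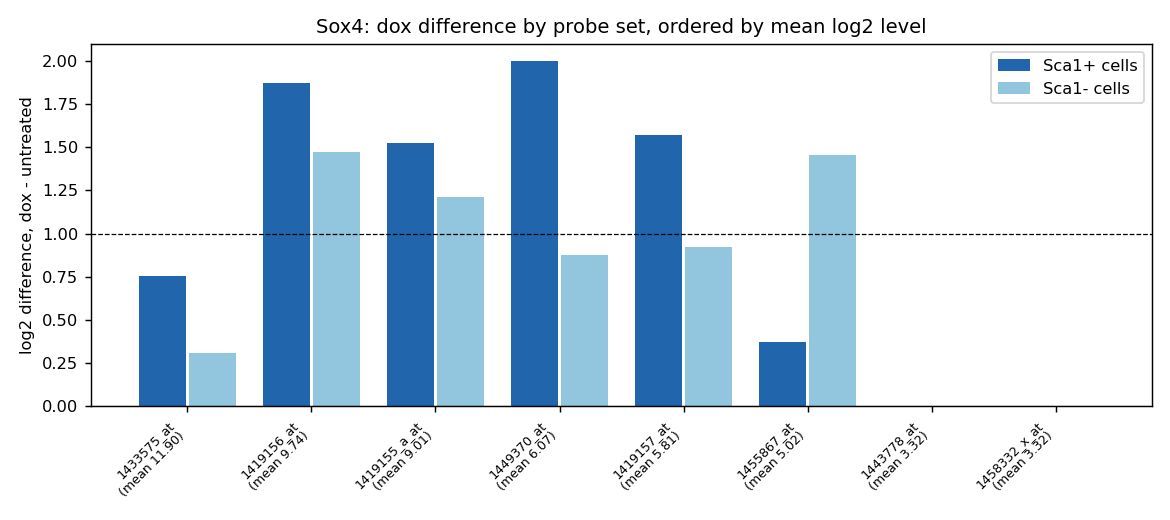
Log2 difference between dox and untreated cells (vertical axis) for the 8 Sox4 probe sets, ordered by mean log2 level from left to right, in Sca1+ (dark bars) and Sca1- cells (light bars); the dashed line marks 2-fold. Bars of the 6 probe sets with signal run from 0.31 to 2.00, all above 0, and the 2 probe sets at the floor have none.

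Sox11, the other SOXC member and a factor of neural progenitors, was nearly level. Its main probe set read 9.50 (Sca1+) and 9.23 (Sca1-) without dox, and 9.43 (Sca1+) and 9.33 (Sca1-) with dox. The largest gap, 1.21-fold between the untreated fractions, was reached by 44.2% of the genes analysed. All 6 Sox11 probe sets lay above the floor on all arrays, and their dox differences ran from -0.44 to -0.06 in Sca1+ and from -0.24 to 0.29 in Sca1- cells (log2). All 6 were higher in Sca1+ than in Sca1- cells without dox, by 0.08 to 0.42, and 2 of 6 were so with dox. With dox, Sox4 was thus higher on every probe set with signal, while the Sox11 probe sets lay within 0.44 of no difference on either side.

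Genes linked to SOXC factors did not share one direction. Of 5 listed targets and partners, 3 passed the filter, 1 was 2-fold higher with dox in both fractions and 1 was 2-fold lower. Of all genes analysed, 5.29% were higher and 8.56% lower by that rule. Tubb3, a neuronal tubulin gene that SOXC factors activate in neurons, read 5.76 (Sca1+) and 3.76 (Sca1-) without dox, and 8.16 (Sca1+) and 7.78 (Sca1-) with dox. Its dox level was 5.27 times the untreated level in Sca1+ cells and 16.3 times in Sca1- cells. The untreated Sca1- value lies near the floor, so the larger ratio rests on a low level, and Tubb3 had 1 probe set with signal. Tead2, a partner of YAP described as a SOXC target, was 4.96-fold and 3.62-fold lower with dox. Ezh2, the Polycomb methyltransferase gene that Sox4 is known to activate, was at -0.69 and -0.77 (log2), and the neuronal gene Dcx was at the floor on all arrays. Tubb3 and Tead2 thus lay on opposite sides while Sox4 was higher.

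The SOXD members Sox5 and Sox6 lack an activation domain of their own, pair with each other and act together with Sox9 on cartilage genes. The main Sox5 probe set, 1455535_at, read 6.83 in untreated Sca1+ cells, 5.93 in untreated Sca1- cells, 6.39 in dox Sca1+ cells and 5.82 in dox Sca1- cells. The Sca1+ fraction was 1.86-fold higher than the Sca1- fraction without dox and 1.48-fold higher with it, and 7.96% and 16.6% of genes differed at least as much. Without dox, 4 of the 5 Sox5 probe sets with signal were higher in Sca1+ cells, and 2 of 5 with dox, where the differences ran from -0.78 to 0.57 (log2). With dox, all 5 were lower in Sca1+ cells, by 0.06 to 0.78 (log2), while in Sca1- cells 3 were higher and 2 lower.

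Sox6 had the opposite order between the fractions. Its main probe set, 1427677_a_at, read 5.69 in untreated Sca1+ cells, 6.21 in untreated Sca1- cells, 5.15 in dox Sca1+ cells and 5.61 in dox Sca1- cells. Sca1+ cells were the lower fraction both times, 1.44-fold without dox and 1.37-fold with dox. Dox cells were lower in both fractions, 1.45-fold in Sca1+ and 1.52-fold in Sca1- cells. All 3 Sox6 probe sets above the floor on every array shared these directions, with dox differences from -0.64 to -0.33 in Sca1+ and from -0.81 to -0.44 in Sca1- cells (log2). The remaining probe set, 1426018_a_at, was at the floor on 2 arrays and highest, at 4.02, in dox Sca1+ cells. No Sox6 difference reached 2-fold, and 43.6% and 34.9% of genes had a dox difference at least as large in Sca1+ and Sca1- cells.

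Sox9, the SOXE factor that drives cartilage formation and is known in the mammary gland beside Snai2, was the most level member with signal on its main probe set. It read 10.22 in untreated Sca1+ cells, 10.39 in untreated Sca1- cells, 10.17 in dox Sca1+ cells and 10.31 in dox Sca1- cells. The dox differences, 1.03-fold and 1.06-fold lower, were exceeded or equalled by 91.9% and 87.1% of genes. The second probe set, 1424950_at, gave -0.28 and -0.35 (log2) with dox. The third, 1433889_at, was at the floor without dox and at 3.90 and 3.81 with dox. Sox9 was 1.13-fold lower in Sca1+ cells without dox, a sign that turned to 0.05 higher (log2) when each array was centred on the median of all its probe sets.

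Cartilage genes that Sox9 activates together with Sox5 and Sox6 differed between the arrays. Of 14 listed, 8 passed the filter and 5 were at the floor on all arrays. With dox 3 of the 8 were 2-fold lower in both fractions and 0 higher, where 8.56% of all genes were lower and 5.29% higher. Between the fractions, 3 were 2-fold lower in Sca1+ cells both times and 0 higher, where 0.881% of all genes were lower and 1.08% higher. Col2a1, the main cartilage collagen, read 8.43 in untreated Sca1+ cells, 11.20 in untreated Sca1- cells, 6.40 in dox Sca1+ cells and 9.34 in dox Sca1- cells. It was 4.09-fold and 3.62-fold lower with dox, and lowest in dox Sca1+ cells. Col9a3 was 11.7-fold and 2.60-fold lower with dox, and the matrilin gene Matn4 5.21-fold and 3.77-fold lower. The gene Cnmd, which encodes the cartilage protein chondromodulin, was 8.15-fold lower in Sca1+ than in Sca1- cells without dox and 3.34-fold lower with dox. Col9a1 was 12.5-fold and 6.80-fold lower in Sca1+ cells, and its dimmer probe set gave -1.80 and -2.09 (log2). The aggrecan gene Acan differed by less than 2-fold throughout. Over the 8, the median difference was -1.09 and -1.55 for dox in Sca1+ and Sca1- cells, and -0.61 and -1.34 for Sca1 without and with dox. These medians were not tested, and they stand beside medians of 0.03, 0.02, -0.01 and -0.03 over all genes. By main probe set Sox9 was nearly level, while Sox6 was lower with dox in both fractions and lower in Sca1+ cells both times. Whether any SOX gene bears on the cartilage genes was not tested. Of 5 markers of cartilage cells, Matn1 and Hapln1 were at the floor on all arrays, while Acan, Col2a1 and Cnmd lay above it on every array. The summed linear level of the 5 was 399 in untreated Sca1+, 2525 in untreated Sca1-, 130 in dox Sca1+ and 723 in dox Sca1- cells.

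**Figure D4:**
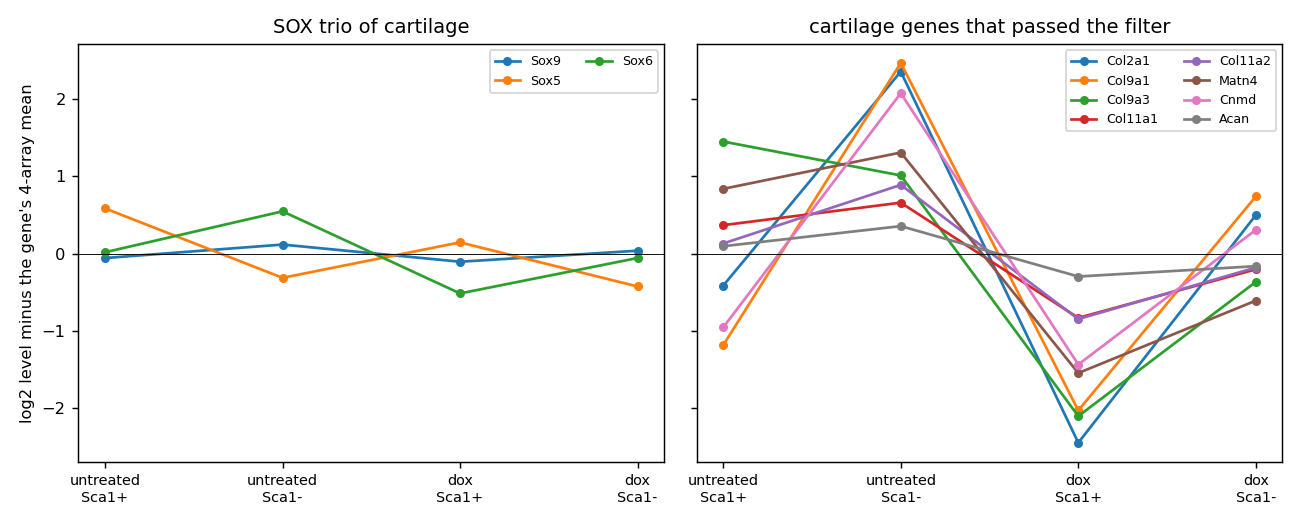
Log2 level minus the gene's mean over the 4 arrays (vertical axis) on each array (horizontal axis) for Sox9, Sox5 and Sox6 (left) and for the 8 cartilage genes that passed the filter (right). The Sox9 line stays next to 0, and the Sox6 line is highest in untreated Sca1- and lowest in dox Sca1+ cells. Col2a1, Col9a1 and Cnmd are highest in untreated Sca1- cells, and every cartilage gene shown is lowest in dox Sca1+ cells.

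Mammary regulators that act beside Sox9 and Sox10 held several genes past 2-fold. Of 11 listed, 9 passed the filter, 3 were 2-fold lower with dox in both fractions and 0 higher, where 8.56% of all genes were lower and 5.29% higher. Between the fractions 3 were 2-fold lower and 1 higher in Sca1+ cells both times, where 0.881% of all genes were lower and 1.08% higher. In Sca1+ cells alone, Gata3, the luminal regulator, was 2.49-fold and Kit 2.30-fold higher with dox. Elf5, the alveolar regulator, had dox differences of at least 2.86-fold (Sca1+) and 3.98-fold (Sca1-), both lower, and was 4.52-fold lower in Sca1+ than in Sca1- cells without dox. Lgr6, a progenitor receptor, was 10.5-fold and 2.39-fold lower with dox, and Procr, a surface marker of mammary stem cells, 3.65-fold and at least 2.87-fold. The dimmer Lgr6 probe set was at -1.66 (Sca1+) and -0.76 (Sca1-) with dox (log2). Elf5 in Sca1+ cells and Procr in Sca1- cells read 4.84 without dox and the floor with it. These values lie under a linear level of 30, so the counts rest in part on low levels. Aldh1a3 and Kit, marks of luminal progenitors, were 4.49-fold and 4.79-fold lower in Sca1+ cells without dox, and 2.76-fold and 2.03-fold lower with dox. Trp63, the basal regulator, was 2.57-fold and 2.11-fold higher in Sca1+ cells. Snai2, the partner of Sox9 in mammary stem cells, read 11.32 (Sca1+) and 10.59 (Sca1-) without dox, and 11.42 (Sca1+) and 11.07 (Sca1-) with dox. It differed by less than 2-fold throughout and was higher in Sca1+ cells both times. Sox2 and the main Sox5 probe set had the same order of fractions. On the dox arrays, 2 of the 5 Sox5 probe sets with signal kept that order and 3 had the reverse. The Sox2 difference between the dox arrays was 0.06 (log2) with the floor raised to a linear level of 30.

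Sox10, the other SOXE member, which is made in the neural crest, melanocytes and Schwann cells as well as in mammary progenitors, had almost no signal. Of its 3 probe sets, 2 were at the floor on all arrays, and 1424985_a_at read 3.41 in untreated Sca1- cells and the floor elsewhere. These values set only an upper bound on the level and give no comparison. Of 5 melanocyte and Schwann markers with a named probe set, Dct, Tyr, Tyrp1 and Mlana were at the floor on all arrays, and the summed linear level of the 5 ran from 50.0 to 55.9. Of 14 neural crest and glial genes linked to Sox10, 8 passed the filter, 1 was 2-fold higher with dox in both fractions and 0 lower. Of all genes analysed, 5.29% were higher and 8.56% lower by that rule. The gene of the list was Tfap2a, an epithelial and neural crest factor, 2.36-fold and 2.14-fold higher. The receptor gene Erbb3 was at 0.89 and 0.53 with dox and Mitf at 0.11 and 0.55 (log2), and Ednrb was at or next to the floor. Others of the list were lower: Mia, a melanocyte and cartilage gene, was at -1.12 and -0.74 with dox, and the receptor gene Ret at -0.79 or below and -0.66. S100b, a glial gene, read 5.19 in untreated Sca1- cells and the floor elsewhere. Over the 8 genes the median dox difference was 0.05 in Sca1+ and -0.70 in Sca1- cells.

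Sox7, the SOXF member, a factor of blood vessels and early endoderm, was at the floor on all arrays by both of its probe sets. Sox17 and Sox18, its SOXF relatives, were at the floor as well. Of 7 endothelial markers, Cdh5, Tek, Tie1, Emcn and Erg were at the floor on all arrays, and the summed linear level of the 7 ran from 70.0 to 73.6, where 7 genes at the floor give 70. Kdr, at up to 3.68, and Pecam1, at up to 3.44, were the markers above the floor on any array.

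The core partners of Sox2 in pluripotent cells were at the floor. Of 9 listed, 4 passed the filter, and Pou5f1, Nanog, Lin28a, Sall4 and Utf1 were at the floor on all arrays. None of the 4 was 2-fold different in the same direction both times with dox or between the fractions. By that rule 5.29% of all genes were higher and 8.56% lower with dox. In Sca1+ against Sca1- cells 1.08% were higher and 0.881% lower. With 4 genes, a count of 0 does not set them apart from all genes. Klf4, a pluripotency and epithelial factor, read 10.94 (Sca1+) and 10.92 (Sca1-) without dox, and 10.60 (Sca1+) and 10.70 (Sca1-) with dox. Prom1, a stem cell surface marker gene, read 3.49 (Sca1+) and 6.19 (Sca1-) without dox, and 3.32 (Sca1+) and 3.44 (Sca1-) with dox, so untreated Sca1- cells, the lowest for Sox2, were its highest. The highest Sox2 value, 6.09 in untreated Sca1+ cells and under a linear level of 100, came with Pou5f1 and Nanog at the floor. Beta-catenin and the TCF/LEF factors, whose HMG boxes are related to those of SOX proteins, made a list of 5 genes. Of these, 4 had a named probe set and 0 were 2-fold different both times in either pair. Beside the shares above, that count does not set 4 genes apart either. Ctnnb1, the beta-catenin gene, was at 0.16 and -0.16 with dox by its main probe set, and lower in both fractions by the other 2, from -0.52 to -0.21 (log2). Lef1 was at least 2.74-fold higher with dox in Sca1+ cells, where it read 4.77.

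Among the remaining SOX genes of the array, Sox8 in both fractions and Sox13 in Sca1+ cells had larger dox differences than any of the 8 members by main probe set. Of 11, 5 passed the filter and 5 were at the floor on all arrays, while Sox3 lay at or next to the floor. Sox8, the third SOXE gene, read 4.90 in untreated Sca1+ cells, 6.98 in untreated Sca1- cells, 3.32 in dox Sca1+ cells and 3.33 in dox Sca1- cells. With dox it was lower by at least 2.99-fold (Sca1+) and by 12.6-fold (Sca1-), and without dox the Sca1+ level was 4.23-fold under the Sca1- level. The 3 SOXE genes thus had 3 patterns: Sox9 level, Sox10 next to the floor, and Sox8 with signal on the untreated arrays and next to the floor with dox. Sox13, the third SOXD gene, read 3.62 (Sca1+) and 4.80 (Sca1-) without dox, and 5.75 (Sca1+) and 5.39 (Sca1-) with dox. With dox it was 4.36-fold (Sca1+) and 1.51-fold (Sca1-) higher, whereas Sox5 and Sox6 were under 2-fold in both. Sox15 was higher in the Sca1+ fraction, 2.74-fold with dox and 1.37-fold without. Sox12, the third SOXC gene, and Sox21, a SOXB gene, stayed under 2-fold by their main probe sets. A dimmer Sox21 probe set, 1451835_at, which read at most 4.60, had dox levels above the untreated ones by 2.29-fold (Sca1+) and by at least 2.09-fold (Sca1-). Each of Sox8, Sox13 and Sox15 has 1 probe set, and none of their values reaches a linear level of 100 apart from Sox8 in untreated Sca1- cells.

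**Figure D5:**
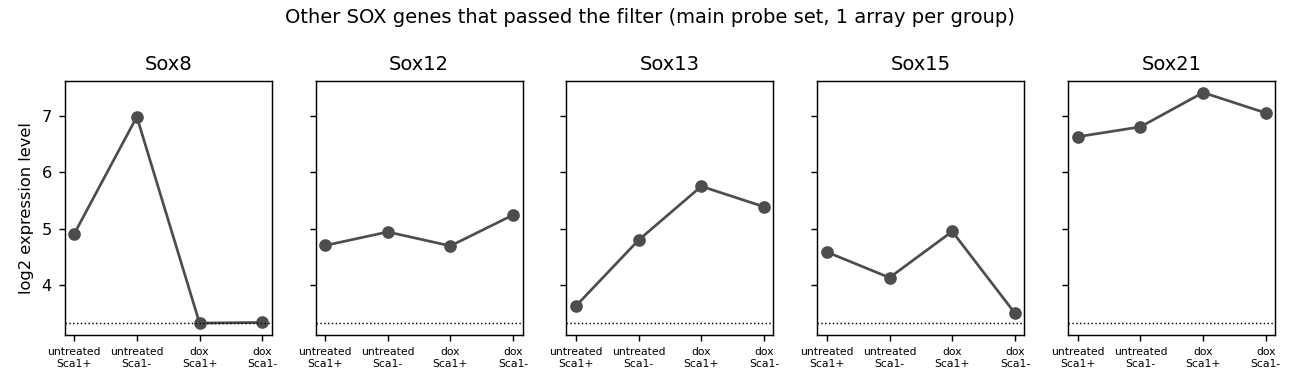
Log2 expression level (vertical axis) of the 5 other SOX genes that passed the filter, by main probe set, on the 4 arrays (horizontal axis), with the floor of 3.32 dotted. Sox8 lies at or next to the floor on both dox arrays, and Sox13 is lowest in untreated Sca1+ cells.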

How the data were processed

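Total RNA (50 to 500 ng) from 4 sorted samples of Comma D beta cells was turned into biotin-labelled cRNA from the 3' end and read on Affymetrix arrays, per the labels' protocols. The deposited values are log2 expression levels per probe set as processed by the authors; the labels name no software, summarization or scaling, and linear levels under 10 had been set to 10. The precision of each value is limited by the single array per group. Symbols came from a platform annotation (34958 probe sets with 1 symbol, 932 with several, 9211 unnamed), compared by gene identifier with RefSeq GRCm38.p6, where 34754 were found and 0 had another symbol; no probe set with several symbols held a member. Genes that reached 3.63, the median of all values in the table, on any array were analysed. Differences were taken over the whole table and counted at 2-fold. An additive limma 3.58.1 fit of dox and Sca1 (R 4.3.3) is an alternative. It takes the fractions for independent samples, which they need not be. Genes named from lists were those 2-fold different the same way both times, up to 4 a list, and a fixed set of well-known SOX partners and targets. The members and lists were chosen with earlier results of these data known. Other alternatives were 3 scalings, averaged probe sets, a floor of 30, 3 filters and a 1.5-fold rule.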

Additional observations from a re-analysis of the deposited data

Results flagged for a closer look

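Some genes had differences of opposite sign in the fractions or treatments. With 1 array per group none of these was tested, and small ones lie within what many genes show. For dox, the effect in Sca1+ minus that in Sca1- cells (log2) was -1.70 for Sox2 (lower in Sca1+, higher in Sca1- cells), 1.24 for Kit, 1.00 for Sox15, -0.31 for Sox12, 0.31 for Ctnnb1 and -0.17 for Sox11. The opposite signs of Kit and Ctnnb1 held for their main probe sets only; the others had 1 sign in both fractions. That of Sox2 was gone with the floor raised to 30. For Sca1, the difference without dox minus that with dox (log2) was 2.17 for Col9a3 and 2.14 for Lgr6, both higher in Sca1+ cells without dox and lower with it. It was -1.53 for Sox13 and -0.54 for Sox21, lower in Sca1+ cells without dox and higher with it. Both untreated Sox13 values, 3.62 (Sca1+) and 4.80 (Sca1-), lie under a linear level of 30. The same value was 0.46 for Tead2, -0.45 for Sox4, -0.31 for Ctnnb1 and 0.12 for Klf4. The dimmer Sox21 probe set was higher in Sca1+ cells both times, by at least 0.09 without dox and 0.22 with it. The other Ctnnb1 probe sets did not repeat the change (0.18 and 0.21, 0.13 and -0.18). Of the other Sox4 probe sets with signal, 1419157_at repeated it (-0.41 and 0.25) and 1455867_at had the reverse (0.86 and -0.23). The rest were lower in Sca1+ cells both times.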

How the results depend on the processing

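Of 120 member differences recomputed under 3 scalings, averaged probe sets and a floor of 30, 118 stayed on their side of 2-fold. None that had passed 2-fold, which were those of Sox2 only, turned sign. The exceptions were Sox5 between the untreated fractions, 1.12 (log2) with each array centred on its overall median, and Sox4 with dox in Sca1+ cells, 1.01 with probe sets averaged. Sox2 kept its side of 2-fold and moved most with the floor of 30, from 2.23 to 1.18 for Sca1 without dox, from 0.59 to 0.00 for dox in Sca1- cells and from 0.53 to 0.06 for Sca1 with dox. The exceptions brought the members counted in those comparisons from 1 to 2 each. Smaller differences did turn sign (log2) with probe sets averaged. For Sca1 with dox, Sox5 went from 0.57 to -0.02, Sox4 from 0.14 to -0.05 and Sox11 from 0.10 to -0.05. For dox in Sca1- cells, Sox5 went from -0.11 to 0.13 and Sox9 from -0.08 to 0.02. For dox in Sca1+ cells, Sox9 went from -0.05 to 0.08. Requiring a highest array of 100 or more (linear) left 4 members and removed Sox2, so both of its counts fell to 0; all-gene counts fell to 1621, 1423, 400 and 432 over the 7514 genes left (dox in Sca1+, dox in Sca1-, Sca1 without and with dox). A 1.5-fold rule gave 2 members in each comparison but Sca1 with dox, where there were 0, and 4899, 4437, 2145 and 1947 genes. A floor of 30 gave 475 and 371 genes for Sca1 without and with dox. Centring each array on its overall median shifted the median gene from 0.03 to -0.16 for dox in Sca1+ cells and from -0.01 to 0.21 for Sca1 without dox, and moved the share of higher calls from 39.7% to 27.3% and from 48.0% to 70.0%. In the additive limma fit 0 of 6 members had a Benjamini-Hochberg adjusted p under 0.05, for dox or for Sca1. At an unadjusted p under 0.05 they were Sox4 and Sox6 for dox, and Sox2, Sox5 and Sox6 for Sca1. No paired analysis was possible by replicate number because each group is 1 array; the additive fit takes each factor within the levels of the other. Low levels limit Sox2, Sox5, Sox6, Sox8, Sox12, Sox13 and Sox15 most.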
